A study of Homo sapiens with 4 samples.

Results

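Genes of the nuclear pore and of the receptors that carry cargo through it were followed in newly made RNA of K562 cells, a human chronic myelogenous leukaemia line that grows in suspension. They were the protein-coding genes whose GENCODE symbols begin with NUP and a digit, KPN, IPO and a digit, XPO and a digit, or TNPO. The rule found 43 genes of the 60279 human identifiers counted, 21 for pore proteins and 22 for transport receptors. The rule itself uses symbols and no measured value. All 21 pore genes and 21 receptor genes had enough reads for testing. The remaining receptor gene, KPNA7, an importin alpha known mainly from oocytes and early embryos, had 0 reads in all 4 libraries, which allows at most 3 reads per library.

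The nuclear pore complex is a large ring of proteins, the nucleoporins, set where the inner and outer nuclear membranes join. Outer and inner rings form its scaffold, and nucleoporins rich in phenylalanine-glycine (FG) repeats fill its channel and hold back large molecules that have no receptor. Importins and exportins bind cargo and the FG repeats, and the small GTPase Ran sets the direction: in its GTP form it releases cargo from importins and loads cargo onto exportins. In blood cancers the family is known for fusions of nucleoporin genes such as NUP98 and for XPO1, the target of the drug selinexor.

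Untreated K562 cells had been labelled with 4-thiouridine, a uridine analogue built into RNA while it is transcribed, for 15 min in 2 libraries and for 5 min in 2 libraries. In this assay, TT-seq, fly S2 cell RNA was added to the total RNA at a constant mass ratio, and the mix was sheared by sonication, then tagged with biotin at the thiol groups and pulled down on streptavidin. All libraries shared the cell line, the culture medium and the absence of any drug, and label time was the only difference in the labels. The labels do not say whether replicates came from separate cultures, so the p-values below speak only for the variation among these 4 libraries, and part of it may be technical.

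The 15 min libraries held 4726327 and 5051370 human reads, against 4339981 and 4695405 in the 5 min libraries. Fly reads numbered 308978 to 318710 after 15 min and 803914 to 897018 after 5 min, so there were 15.3 to 15.8 human reads per fly read after 15 min and 4.84 to 5.84 after 5 min. Replicate counts scattered beyond sampling noise, with a chi-square per degree of freedom of 1.78 over genes at 15 min and 1.62 at 5 min, and each library was kept as its own sample. All 10 erythroid and K562 markers were measured, with 8428 to 9256 summed reads after 15 min and 10470 to 12175 after 5 min. Marker lists of other cell types had 0 to 2 of 5 genes measured each, with summed reads of at most 186 per library after 15 min (epithelial list) and 283 after 5 min (epithelial list), and MS4A1 and KRT5 at 0.

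Labelled RNA of every measured pore and receptor gene rose with the longer label, with median folds in both classes that lay close together. Levels were expressed as human reads per 1000000 fly reads, called fly-scaled reads here. In edgeR's quasi-likelihood test, with library sizes set to the fly totals and p-values adjusted over 17322 genes, all 42 measured genes were higher after 15 min, where 98.4% of all tested genes were. Median folds, 15 min over 5 min, were 2.46 for the 21 pore genes and 2.47 for the 21 receptor genes, against 3.20 over all tested genes and 2.96 over the 11547 tested protein-coding genes. The label time itself rose 3-fold, and 5 pore genes and 4 receptor genes passed that fold, 9 of 42, against 58.1% of all tested genes and 47.8% of the protein-coding ones. Both classes therefore lay low in the distribution of folds, with ranges of 1.64 to 3.43 in pore genes and 1.83 to 10.1 in receptor genes. Since fly RNA was added by mass of total RNA, this scale gives labelled RNA relative to total RNA, not per cell.

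**Figure D1:**
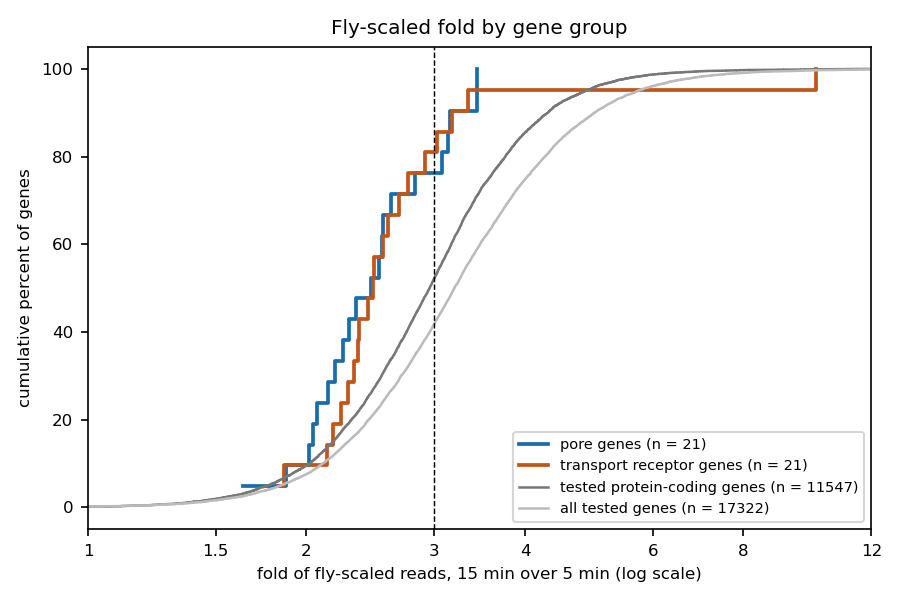
Cumulative share of genes (y axis, percent) by fold of fly-scaled reads, 15 min over 5 min (x axis, log scale), for pore genes, receptor genes, all 17322 tested genes and the 11547 tested protein-coding genes. The pore and receptor curves cross one another, with medians of 2.46 and 2.47, and lie left of the all-gene curve, whose median is 3.20, over most of their range, with IPO4 at 10.1. The dashed line marks the 3-fold ratio of the label times.

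Summed over each class, the level was 54612 fly-scaled reads for pore genes on average after 15 min and 23354 after 5 min, and 63724 for receptor genes after 15 min and 26632 after 5 min. Neither class overlapped between label times, yet an exact permutation test on a single sum cannot go below p = 0.333 with 2 libraries against 2, and gave that value for both. The 5 min libraries differed more than the 15 min ones: 41 of the 42 genes were higher in the second 5 min library than in the first, as were 82.1% of all tested genes. Over the 4 pairs of one 15 min and one 5 min library, the median fold of pore genes ran from 2.22 to 2.73 and that of receptor genes from 2.20 to 2.7.

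Within the pore, the median fold was lower in the outer and inner rings than in the FG channel, with overlapping ranges. The 6 outer ring genes, members of the Y-shaped complex that coats the membrane (NUP37, NUP43, NUP85, NUP107, NUP133 and NUP160), had a median fold of 2.22. The 5 inner ring genes (NUP35, NUP93, NUP155, NUP188 and NUP205) had a median fold of 2.24. The 4 genes grouped here with the channel, NUP54, NUP58, NUP62 and NUP98, had a median fold of 2.88. Their own range, 2.19 for NUP98 to 3.43 for NUP62, overlapped that of the ring genes, 1.88 for NUP43 to 3.43 for NUP85. Each gene was counted in a single role group, so the group medians depend on where NUP98, the lowest of the 4, was placed. The difference between role groups was not tested. NUP85, of the outer ring, had the highest fold among pore genes beside NUP62, also 3.43. NUP62 shares 336 exonic bases with IL4I1 and 384 with AC011452.1 on the same strand, and 626 with ATF5 on the opposite strand. The part of these overlaps in its fold was not tested.

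Per kilobase of exon, pore and receptor genes had close median levels. The mean over the 4 libraries had a median of 235 fly-scaled reads per kb over pore genes and 238 over receptor genes, against 85.2 over all tested genes. Of the 42 genes, 38 lay above that all-gene median, 20 of 21 pore genes and 18 of 21 receptor genes. The exceptions were NUP210L among pore genes and KPNA5, IPO13 and IPO4 among receptor genes.

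**Figure D2:**
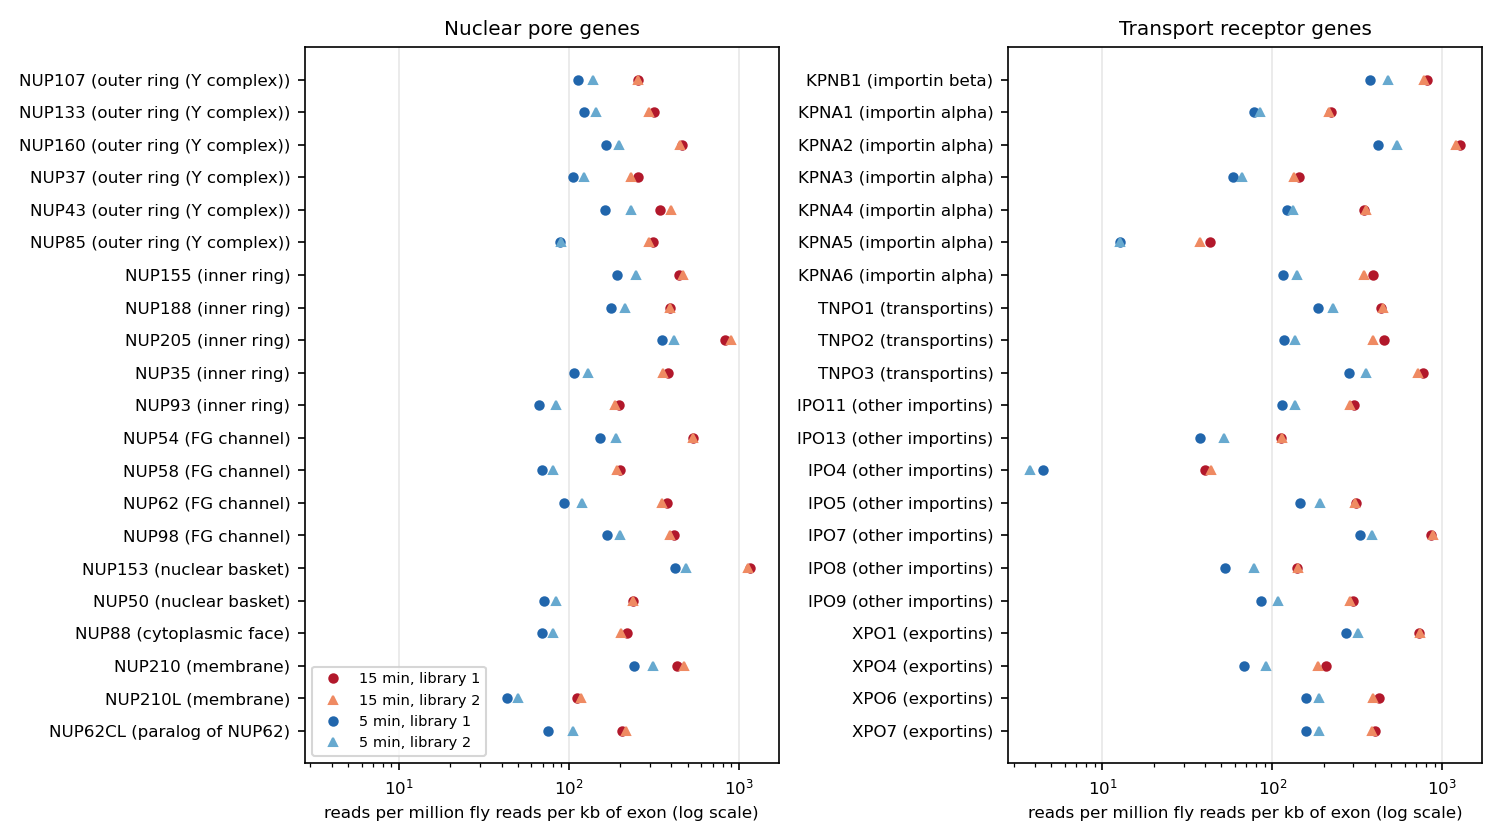
Fly-scaled reads per kb of exon (x axis, log scale) in each of the 4 libraries for the 21 pore genes (left) and the 21 measured receptor genes (right), in red for 15 min and in blue for 5 min, with the role in brackets. In every gene both 15 min points lie right of both 5 min points, as they would in 99% of all tested genes. IPO4 shows the widest gap.

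NUP153, a nuclear basket protein with FG repeats (chromosome 6, 17615035 to 17706834, minus strand, GRCh38), was the most heavily labelled pore gene. It had 7006 and 6771 fly-scaled reads after 15 min, against 2517 and 2952 after 5 min. Per kb of exon that was 798 on average over the 4 libraries. Both 15 min libraries lay above both 5 min libraries, as in 99% of all tested genes, and the fold was 2.52. NUP205, a large inner ring scaffold protein (chromosome 7, 135557919 to 135648757, plus strand), had 6310 and 6800 fly-scaled reads after 15 min, against 2676 and 3168 after 5 min, or 622 per kb on average. NUP210, a pore membrane glycoprotein (chromosome 3, 13316235 to 13420309, minus strand), had 3514 and 3861 fly-scaled reads after 15 min, against 1968 and 2540 after 5 min, or 363 per kb on average. Its fold of 1.64 was the lowest of the 42 genes. The log2 fold on this scale was 0.71 ± 0.17 (SE), and without the second 15 min library the rise did not pass the test (log2 fold 0.64, adjusted p = 0.0581, edgeR).

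At the low end of the pore genes stood NUP210L, a paralog of NUP210 known for its expression in testis (chromosome 1, 153992685 to 154155116, minus strand). It had 656 and 693 fly-scaled reads after 15 min, against 254 and 295 after 5 min, or 80.5 per kb on average. NUP93, which links inner ring and channel proteins (chromosome 16, 56730105 to 56850286, plus strand), had 2187 and 2062 fly-scaled reads after 15 min, against 741 and 927 after 5 min, or 133 per kb on average. From the most to the least labelled pore gene the level per kb thus spanned about an order of magnitude. Within each gene both 15 min libraries lay above both 5 min libraries, as in 99% of all tested genes.

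Among receptors, KPNA2, an importin alpha that binds the classical nuclear localisation signal (chromosome 17, 68035519 to 68046842, plus strand), had the highest level per kb, 859 on average. It had 4016 and 3761 fly-scaled reads after 15 min, against 1305 and 1700 after 5 min, a fold of 2.59. KPNB1, the importin beta that pairs with importin alpha and carries it through the channel, is also on chromosome 17 (47649476 to 47685505, plus strand). KPNB1 had 6209 and 5994 fly-scaled reads after 15 min, against 2891 and 3666 after 5 min, or 611 per kb on average. Its fold was 1.86, against a median of 2.47 over receptor genes. IPO7, an importin of ribosomal proteins and histones (chromosome 11, 9384622 to 9448126, plus strand), had 6216 and 6386 fly-scaled reads after 15 min, against 2376 and 2806 after 5 min, or 614 per kb on average. XPO1, the main exportin for proteins with a leucine-rich export signal, had 514 fly-scaled reads per kb on average and a fold of 2.48.

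The lowest levels per kb among measured receptor genes were those of IPO4 and KPNA5. IPO4, an importin of histones and ribosomal proteins (chromosome 14, 24180219 to 24188964, minus strand), had 201 and 217 fly-scaled reads after 15 min, against 22.3 and 18.7 after 5 min, or 22.9 per kb on average. These values rest on 64 and 67 reads after 15 min and on 20 and 15 reads after 5 min. Its fold of 10.1 was the highest of the 42 genes, and its log2 value was 3.33 ± 0.29 (SE). IPO4 shares 3470 exonic bases, 69.3% of its own, with the same-strand gene AL136295.4, which was counted at 1 to 2 reads per library. How reads in shared exons were assigned is not stated, and the level per kb counts those bases as its own, so its level and place in the order may be too low. IPO4 also overlaps REC8 on the opposite strand by 39 bases. REC8 itself had 87 reads in each 15 min library, against 41 in each 5 min library, and a fly-scaled fold of 5.72. Their part in the IPO4 value was not tested, and whether counting was stranded is not stated here. KPNA5, another importin alpha (chromosome 6, 116681187 to 116741866, plus strand), had 493 and 430 fly-scaled reads after 15 min, against 145 and 146 after 5 min, or 26.6 per kb on average.

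The 6 measured importin alphas had a median fold of 2.72, from 2.23 for KPNA3 to 3.18 for KPNA5. The 3 transportins had a median of 2.32, with TNPO2 at 3.34, TNPO3, an importer of serine/arginine-rich splicing factors, at 2.32, and TNPO1, the importer of proteins with a proline-tyrosine signal such as hnRNP A1, at 2.13. The 7 other importins had a median fold of 2.43, and apart from IPO4 they ran from 1.83 for IPO5 to 3.03 for IPO9. The 4 exportins were close together, from 2.28 for XPO7 to 2.48 for XPO1, with XPO4 at 2.47 and XPO6, the exportin of actin and profilin, at 2.36.

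Each library was next scaled to its own human reads with TMM factors, giving counts per 1000000 reads (CPM), which asks whether a gene took a larger or smaller share of the labelled RNA after 15 min than after 5 min. A share falls where a gene's labelled RNA rises less than that of most genes. Of the 42 genes, 31 fell in share, where 21.3% of all tested genes and 30.5% of the protein-coding ones fell. A single gene, IPO4, rose, where 16.8% of all tested genes and 13.7% of the protein-coding ones rose, and 10 did not pass. The fall covered both classes: 15 of 21 pore genes fell and 6 did not pass, and 16 of 21 receptor genes fell, 1 rose and 4 did not pass. Scaling by total human reads instead gave 25 falls and 4 rises (IPO4, TNPO2, NUP85 and NUP62), where 16.1% of all tested genes fell and 24.6% rose. It moved the median log2 change of all genes to 0.13 from 0.03. Over all genes, rises were then 60.4% of calls, against 44.1% with TMM. DESeq2 with its own size factors gave 25 falls and 1 rise, where 13.7% of all tested genes fell and 5.33% rose. The calls lost were the same 6 in both cases: KPNA1, KPNA4, IPO13, NUP58, NUP210L and NUP62CL.

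The median log2 change of share was −0.35 over pore genes and −0.34 over receptor genes, against 0.03 over all tested genes and −0.08 over the protein-coding ones. Without a test, 33 of the 42 genes had both 15 min libraries below both 5 min libraries, where 33% of all tested genes did, 2 had both above, where 34.6% did, and 7 overlapped. All pore genes together took 0.345% and 0.357% of human reads after 15 min, against 0.436% and 0.439% after 5 min. Receptor genes took 0.409% and 0.410% after 15 min, against 0.496% and 0.501% after 5 min. The ratio of pore to receptor reads was 0.843 and 0.871 after 15 min, against 0.879 and 0.875 after 5 min. That ratio did not overlap between label times, with means of 0.857 after 15 min and 0.877 after 5 min, and the exact permutation test gave its smallest possible p of 0.333 with 2 libraries each.

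**Figure D3:**
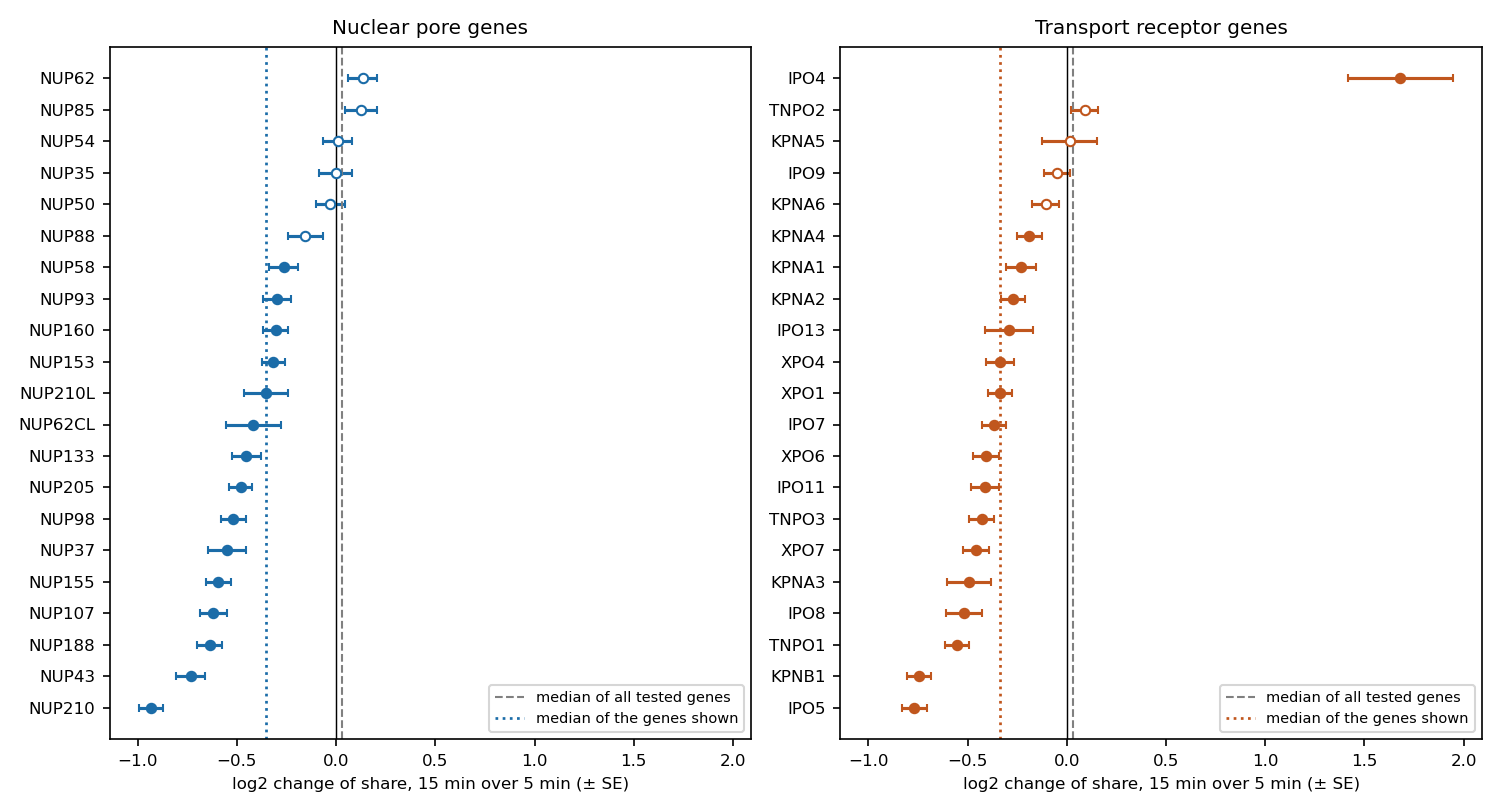
Log2 change of share, 15 min over 5 min, with its standard error (x axis), for each pore gene (left) and each measured receptor gene (right), sorted by value, filled where the adjusted p was under 0.05. Both classes are centred near the same value, −0.35 and −0.34, left of the all-gene median of 0.03, with IPO4 alone far to the right.

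Among pore genes, the largest falls of share were those of NUP210, NUP43 and NUP188. NUP210 took 216 and 245 CPM after 15 min, against 421 and 457 after 5 min. Its 15 min values both lay below its 5 min values, as in 33% of all tested genes. Its log2 change was −0.93 ± 0.062 (SE, adjusted p = 1.22e-48), at percentile 2.53 of all tested genes. NUP43, an outer ring propeller protein (chromosome 6, 149724315 to 149749665, minus strand), had 1525 and 1761 fly-scaled reads after 15 min, against 725 and 1029 after 5 min. In share it had 93.7 and 112 CPM after 15 min, against 155 and 185 after 5 min, a log2 change of −0.73 ± 0.073 (SE, adjusted p = 1.05e-21). NUP188, a large inner ring protein (chromosome 9, 128947699 to 129007096, plus strand), had 3150 and 3162 fly-scaled reads after 15 min, against 1422 and 1713 after 5 min. Its share was 193 and 201 CPM after 15 min, against 305 and 308 after 5 min, a log2 change of −0.64 ± 0.064 (SE, adjusted p = 8.19e-22). The scaffold genes NUP107, NUP155 and NUP37 followed, with log2 changes of −0.62, −0.59 and −0.55.

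The 6 pore genes that did not pass came from 5 role groups. NUP62, at the centre of the channel, had a log2 change of 0.13 (adjusted p = 0.143) and NUP54, its channel partner, 0.01 (adjusted p = 0.942). NUP85 of the outer ring had 0.12 (adjusted p = 0.23), and NUP35, the inner ring protein that can bind membranes, had −0.0016 (adjusted p = 0.991). NUP50, a nuclear basket protein that helps release cargo from importin alpha, had −0.03 (adjusted p = 0.798). NUP88, on the cytoplasmic face, had −0.15 (adjusted p = 0.171), although both of its 15 min libraries, at 71.5 and 67.8 CPM, lay below both 5 min libraries, at 78.8 and 76.3.

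Among receptors, IPO5, an importin of ribosomal proteins and histones (chromosome 13, 97953658 to 98024297, plus strand), lost most share. It had 3006 and 2952 fly-scaled reads after 15 min, against 1399 and 1853 after 5 min. Its share was 185 and 187 CPM after 15 min, against 300 and 334 after 5 min, a log2 change of −0.77 ± 0.064 (SE, adjusted p = 3.05e-31). KPNB1 took 382 and 380 CPM after 15 min, against 619 and 660 after 5 min, a log2 change of −0.75 ± 0.061 (SE, adjusted p = 5.72e-33). TNPO1 (chromosome 5, 72816312 to 72916733, plus strand) had 5240 and 5340 fly-scaled reads after 15 min, against 2235 and 2723 after 5 min. Its share was 322 and 339 CPM after 15 min, against 479 and 490 after 5 min, a log2 change of −0.55 ± 0.061 (SE, adjusted p = 3.34e-18). These 3 genes were picked for their falls. In each, both 15 min CPM values lay below both 5 min values, as in 33% of all tested genes.

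IPO4 went the other way, with 12.3 and 13.8 CPM after 15 min, against 4.78 and 3.36 after 5 min. The log2 change was 1.68 ± 0.26 (SE, adjusted p = 2.96e-09), at percentile 99.7 of all tested genes. This is the only call of a higher share in the family, and with genes that share exons left out, none remained. The receptor genes that did not pass were TNPO2 (log2 change 0.09, adjusted p = 0.299), KPNA5 (0.01, adjusted p = 0.954), IPO9 (−0.05, adjusted p = 0.594) and KPNA6 (−0.11, adjusted p = 0.205). All 4 exportins fell, with log2 changes between −0.34 and −0.46.

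Of the 20 genes whose exons overlap another gene, 10 encode pore proteins and 10 receptors. Among the 22 measured genes with no such overlap, 16 fell in share, 7 of 11 pore genes and 9 of 11 receptor genes. Over all tested genes, with or without overlap, 21.3% fell, and the percentage among those without overlap was not computed. The median fly-scaled fold of the 22 genes was 2.47.

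The fold of a gene went with the length it spans in the genome. Across the 42 genes, Spearman's rho between genomic span and fly-scaled fold was −0.43, and −0.38 without IPO4. It was −0.42 over pore genes and −0.49 over receptor genes, or −0.41 without IPO4. Over all 17101 tested genes with an annotated span it was −0.34, and over the protein-coding ones −0.17. These are correlations across genes measured in the same libraries, and genes are not independent replicates. The 9 genes with a fold above 3, namely IPO4, NUP62, NUP50, TNPO2, NUP85, NUP54, NUP35, IPO9 and KPNA5, spanned 8.75 to 60.7 kb, with a median of 30.1 kb. The other 33 genes spanned 11.3 to 225 kb, with a median of 70.6 kb, and 24 of them were longer than any of the 9. Short genes with lower folds were found too, KPNA2 being the shortest at 11.3 kb, with a fold of 2.59. NUP43 spanned 25.4 kb with a fold of 1.88, and KPNB1 36.0 kb with a fold of 1.86. The fold went little with exonic length (rho −0.11 over the 42 genes). Between level per kb of exon and fold, rho was −0.30 over the 42 genes and −0.25 without IPO4. It was −0.07 over all tested genes and −0.17 over the protein-coding ones, where span gave −0.17 too.

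**Figure D4:**
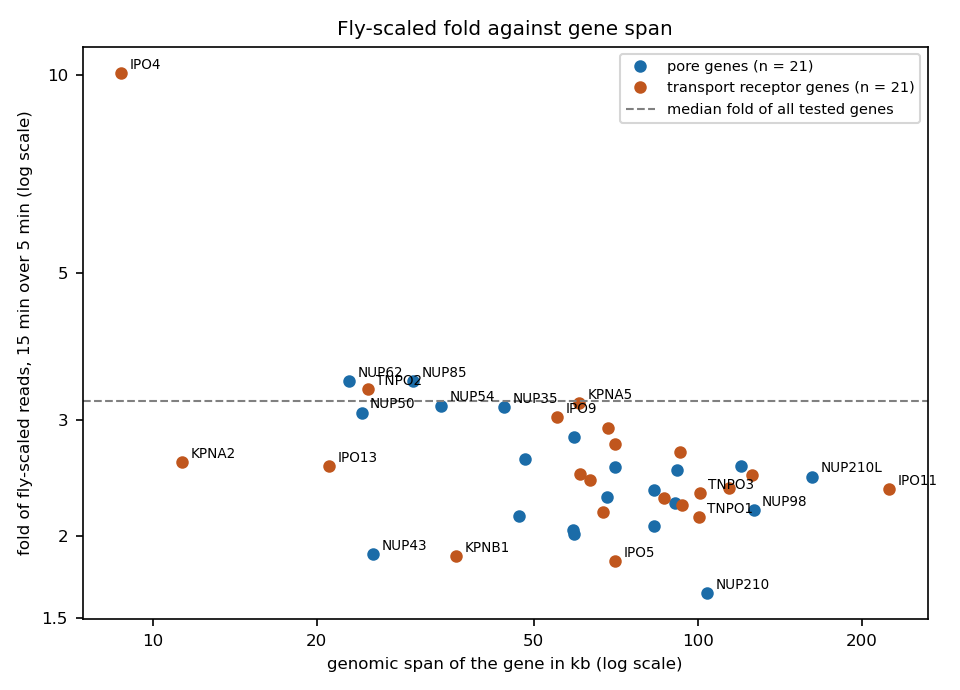
Fold of fly-scaled reads, 15 min over 5 min (y axis, log scale), against genomic span in kb (x axis, log scale) for pore and receptor genes, each point 1 gene, with the median fold of all tested genes as a dashed line. The 9 genes above a 3-fold rise all span 60.7 kb or less, while genes up to 225 kb lie below it, and rho is −0.43 over the 42 genes.

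The deposited production rates, 1 value per gene with no replicate error and no unit given, had close medians in both classes. A rate was given for 19 pore genes and 20 receptor genes, with none for NUP62, NUP210L, IPO4 and KPNA7. The median rate was 0.0334 for pore genes and 0.0336 for receptor genes, against 0.0114 over 11777 genes. Of the 39 genes, 38 lay above that all-gene median, the exception being IPO13. The 9774 tested protein-coding genes with a rate had a higher median, 0.0137. NUP88, IPO11, IPO8, KPNA5 and IPO13 lay below that value.

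The highest rates in the family belonged to KPNA2 at 0.129, NUP153 at 0.109 and KPNB1 at 0.0986, and NUP205 was second among pore genes at 0.0746. KPNA2 stood at percentile 97.7 of all genes with a rate, and NUP153 at percentile 97.2. The lowest rates among pore genes were those of NUP88 and NUP62CL. NUP88 (chromosome 17, 5360963 to 5420160, minus strand) had a rate of 0.0136, with 1164 and 1068 fly-scaled reads after 15 min, against 368 and 424 after 5 min. NUP62CL, a paralog of NUP62 (X chromosome, 107123427 to 107206433, minus strand), had a rate of 0.0204, with 383 and 405 fly-scaled reads after 15 min, against 140 and 197 after 5 min. Both genes lay above the all-gene median rate, and NUP88 lay just below the median of 0.0137 over tested protein-coding genes. Among receptors, IPO13, which can both import and export cargo (chromosome 1, 43946939 to 43968022, plus strand), had the lowest rate, 0.0107, with 574 and 579 fly-scaled reads after 15 min, against 190 and 264 after 5 min. KPNA5 was next at 0.0115.

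Rates followed the level per kb of exon. Spearman's rho was 0.88 over the 39 genes and 0.89 over the 10737 genes with both values, but the sources used here do not say which libraries the rates were made from, so both measures may share reads. IPO11, an importin of ubiquitin-conjugating enzymes, and KPNA5 stood furthest from that relation by percentile, on opposite sides. Among the 10737 genes IPO11 was at percentile 50.2 by rate and 79.8 by level, and KPNA5 at percentile 45.7 by rate and 17.3 by level. IPO11 shares 1279 exonic bases with LRRC70 and 428 with KIF2A, both on the same strand, and spans the greatest length of the 42 genes. The rate went little with the fold (rho −0.11 over the 39 genes).

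**Figure D5:**
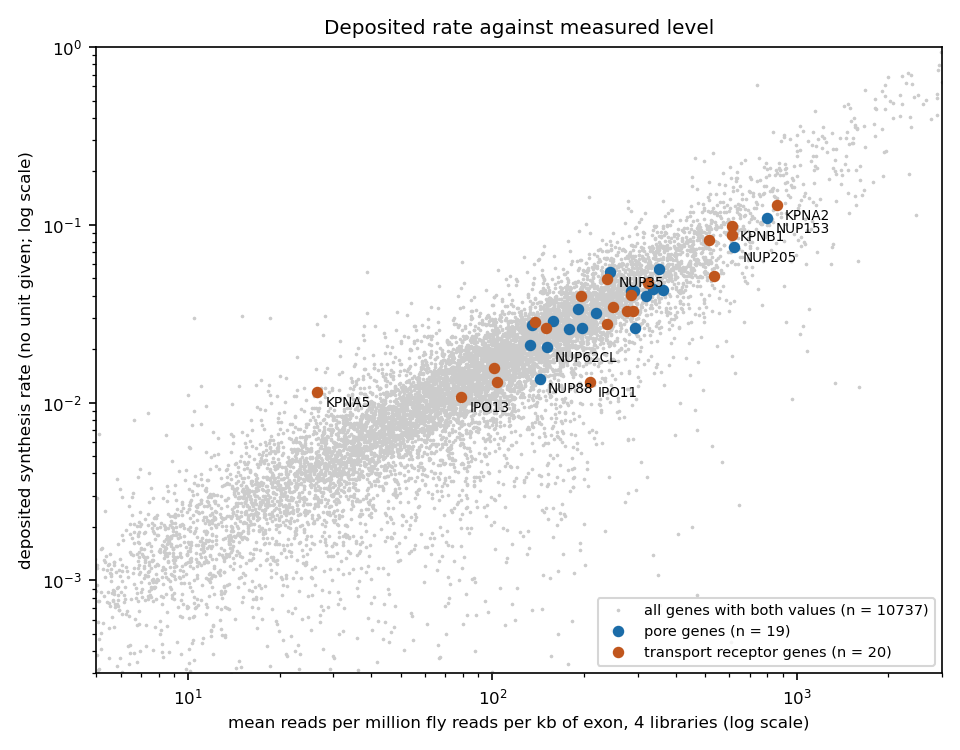
Deposited production rate (y axis, log scale, no unit given) against the mean fly-scaled reads per kb of exon over the 4 libraries (x axis, log scale), for 19 pore genes and 20 receptor genes over the 10737 genes with both values in grey, some of which lie beyond the axes. Both classes lie along the grey band, with KPNA2 and NUP153 at the top, IPO11 low for its level and KPNA5 high for its level.

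Promoters are printed for the pore and receptor genes with the highest level per kb of exon, NUP153 and KPNA2. They are also printed for the genes with the largest fall and the largest rise of share, NUP210 and IPO4. The start of each can thus be read beside its values. Each window runs from 250 bases before to 50 bases after the RefSeq start on GRCh38.p14, 5′ to 3′ along the gene. Capitals mark every match, on either strand, of the CCAAT box (letters CCAAT), the GC box (letters GGGCGG), the ETS core (letters CCGGAAG), the CHR element (letters TTTGAA), the E2F core (letters GGCGGGAA), the YY1 core (letters AANATGGCG), the E-box (letters CACGTG) or the TATA box (letters TATAAA).
NUP153 promoter, chr6:17706876-17707175, minus strand: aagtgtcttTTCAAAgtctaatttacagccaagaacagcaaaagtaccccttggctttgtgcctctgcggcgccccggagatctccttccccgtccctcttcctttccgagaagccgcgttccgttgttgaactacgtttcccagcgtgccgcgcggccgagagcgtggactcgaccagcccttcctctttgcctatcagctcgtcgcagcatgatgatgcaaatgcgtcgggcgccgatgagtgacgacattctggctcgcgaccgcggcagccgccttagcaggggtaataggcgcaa
NUP210 promoter, chr3:13420273-13420572, minus strand: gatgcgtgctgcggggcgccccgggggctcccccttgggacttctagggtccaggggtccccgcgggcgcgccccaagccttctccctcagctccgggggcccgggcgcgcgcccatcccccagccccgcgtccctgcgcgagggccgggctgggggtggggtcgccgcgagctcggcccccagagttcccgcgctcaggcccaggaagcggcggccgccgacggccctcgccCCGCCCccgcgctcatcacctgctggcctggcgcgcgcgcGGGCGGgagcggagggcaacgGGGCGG
KPNA2 promoter, chr17:68035485-68035784, plus strand: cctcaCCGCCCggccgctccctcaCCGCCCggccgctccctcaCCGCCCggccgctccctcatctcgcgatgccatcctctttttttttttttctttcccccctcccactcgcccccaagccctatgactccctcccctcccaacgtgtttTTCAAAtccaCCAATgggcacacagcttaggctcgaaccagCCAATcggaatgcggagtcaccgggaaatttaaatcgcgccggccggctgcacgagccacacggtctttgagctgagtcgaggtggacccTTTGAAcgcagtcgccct
IPO4 promoter, chr14:24188767-24189066, minus strand: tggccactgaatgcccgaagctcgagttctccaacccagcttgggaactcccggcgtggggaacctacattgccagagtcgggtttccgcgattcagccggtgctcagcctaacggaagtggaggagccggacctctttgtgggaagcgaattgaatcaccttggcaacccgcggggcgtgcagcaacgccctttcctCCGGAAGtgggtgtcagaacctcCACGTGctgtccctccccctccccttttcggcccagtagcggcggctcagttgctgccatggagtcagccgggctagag

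In these windows KPNA2 held a pair of CCAAT boxes, 89 and 58 bases before the start, the GC box 3 times within a short repeat, and the CHR element on each side of the start, 99 bases before and 32 after. CCAAT boxes followed by a CHR element are known from promoters that are active in G2 and mitosis, where KPNA2 RNA peaks in cycling cells. NUP153 held 1 CHR element, 241 bases before the start, and no match to the other motifs. NUP210, with 81.3% G and C, held the GC box 3 times, and IPO4 held an ETS core 52 bases before the start and an E-box, which reads the same on both strands, 29 bases before it. A match is a string of letters, not a shown binding site.

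RefSeq windows were found for 37 of the 43 genes, 48 windows in all. A CCAAT box was in 47.9% of these windows and in 34.6% of all 34943 RefSeq windows. The shares were 50% and 44.9% for the GC box, 22.9% and 10.2% for the ETS core, and 25% and 15.2% for the CHR element. They were 14.6% and 3.19% for the YY1 core, 12.5% and 3.15% for the E2F core, 14.6% and 7.23% for the E-box, and 8.33% and 11.6% for the TATA box. By gene, the ETS core was in 8 of 20 pore genes and 3 of 17 receptor genes, and the E-box in 2 of 20 pore genes and 5 of 17 receptor genes, differences that were not tested. The windows had a median of 62.5% G and C, against 58.7% over all windows, and G and C content bears on how often such strings occur.

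Other genes of nuclear transport were taken from 4 lists, 45 genes of which 43 were measured. On the fly scale 42 of them rose, with a median fold of 2.69, and NXT2, an mRNA export cofactor, did not pass. In share 22 fell, 8 rose and 13 did not pass. Over all tested genes 21.3% fell and 16.8% rose, and over the protein-coding ones 30.5% and 13.7%. Of the 8 measured Ran cycle genes 6 fell and 1 rose. RAN itself fell in share with a log2 change of −0.55 (adjusted p = 5.32e-18) and RANBP1, which helps hydrolyse GTP on Ran, with −0.49 (adjusted p = 2.69e-14). RAN had a deposited rate of 0.334, above every pore and receptor gene with a rate.

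Of 11 further pore components 6 fell and 1 rose, led by NDC1, a membrane nucleoporin, with a log2 change of −0.81 (adjusted p = 1.27e-28), and TPR, the basket filament protein, with −0.47 (adjusted p = 2.02e-13). Of 7 measured further receptors 3 fell and 2 rose. The strongest calls there were CSE1L, which returns importin alpha to the cytoplasm, with −0.78 (adjusted p = 4.37e-33), and XPOT, the exportin of transfer RNA, also with −0.78 (adjusted p = 1.97e-32). Of the 17 mRNA export genes 7 fell, 4 rose and 6 did not pass. Beside each of these lists stand 21.3% falls and 16.8% rises over all tested genes, and 30.5% and 13.7% over the protein-coding ones. THOC2, a scaffold of the THO complex, had −0.50 (adjusted p = 1.77e-14) and DDX39B, the helicase that joins THO to the export machinery, 0.45 (adjusted p = 5.58e-12). DDX39B had 6740 and 6674 fly-scaled reads after 15 min, against 1458 and 1678 after 5 min, a fold of 4.28, and overlaps the exons of 4 other genes.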

How the data were processed

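For 4 libraries, human and fly gene counts were deposited as whole numbers with no normalization, along with 1 synthesis rate per gene. The deposited rate was used as a score, since per the file headers no unit or method is given. The submitters' processing notes name STAR 2.7, Subread 2.0.1, featureCounts, edgeR and bcl2fastq 2.17.1.14, with builds hg38 and dm6. Neither the counted feature nor the strand setting is stated in these sources. GENCODE 29 gave symbols, positions and exonic lengths of GRCh38, and RefSeq gave promoters.

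Counts were fitted once over all human genes with edgeR 4.0.16 (filterByExpr with a minimum count of 10, robust quasi-likelihood fit, label time as the only term), with library sizes set to fly totals or with TMM factors. P-values were two-sided and Benjamini-Hochberg adjusted at 0.05. Standard errors came from the F statistic. The filter left 17322 genes, 42 of them pore or receptor genes. The code was tested on simulated data with variation between libraries set near that of the share scale, 4.08%. On the fly scale that variation was 9.77%, so the fly-scale test was not tried at its own noise. Alternatives were DESeq2 1.42.0, total human counts, TMM-scaled fly totals, no filter, a replicate block, each library left out and genes without exon overlap. Depth was 4339981 to 5051370 human reads per library, and read counts cover sampling error only.

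Per-library values are given, within each class, for the 3 highest and 2 lowest levels per kb, up to 3 largest gains and losses of share and the 2 highest and lowest rates. For each list of other transport genes the 2 smallest adjusted p are named. Motifs, XPO1, IPO11, NXT2 and REC8 lie outside that rule. Members, lists and motifs were chosen with earlier results of these data known. Another 2 genes with such symbols are not reported here.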

Additional observations from a re-analysis of the deposited data

How the results depend on the processing

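All 42 pore and receptor genes rose on the fly scale with TMM-scaled fly totals, DESeq2, no filter and the block. Of all tested genes 98.0%, 94.4%, 63.0% and 98.1% rose in those fits. Falls of share numbered 31 in the reported fit and 30 without the filter, where 21.3% and 10.9% of all tested genes fell. They numbered 25 with total human counts and with DESeq2, where 16.1% and 13.7% fell. Rises numbered 1, where 16.8% of all tested genes rose, and 4 with total human counts (2 pore and 2 receptor genes), where 24.6% did. Restricting to genes with no exon overlap left 22 rises on the fly scale and 16 falls of share (7 pore, 9 receptor). It left 0 rises of share among all or among receptors, from fewer genes by construction. Matching percentages over all tested genes with no overlap were not computed. Median rates were then 0.0361 for pore and 0.0326 for receptor genes. When 1 library was left out, the median log2 fold ran from 1.19 to 1.45 for pore genes and from 1.13 to 1.43 for receptor genes. The median log2 change of these genes minus that of all genes ran from −0.34 to −0.43 over all settings. NUP210's rise on the fly scale was lost without the second 15 min library. IPO13's fall was lost in 6 alternatives (adjusted p 0.0507 to 0.399, edgeR or DESeq2), NUP62CL's and KPNA4's in 4 each, NUP210L's and KPNA1's in 3 each and NUP58's in 2. KPNA5's share, not called in any fit, had a log2 change of −0.000493 with DESeq2 and −0.12 to 0.11 when 1 library was left out, negative without the first 15 min (−0.07) or the second 5 min library, and the cause was not tested. Libraries of the 2 label times share only a number: same-numbered deviations correlated at 0.0484 over genes. With the replicate number as a block, 42 rises on the fly scale, 31 falls and 1 rise of share were called, as without it. Of all tested genes 22.4% then fell in share and 17.8% rose. Depth limits IPO4 most, with 15 to 67 reads per library.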
